A study of Homo sapiens with 5 samples.

Results

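The genes described here are 8 direct targets of the transcription factor p53 that it switches on in human cells, MDM2, CDKN1A, SESN1, BAX, TNFRSF10B, RRM2B, RPS27L and ZMAT3, together with MDM4, the close relative of MDM2 that restrains p53. They are 9 of the 14042 gene symbols in a table of ribosome footprint counts, matched by symbol, with the transcript of most counts standing for each gene. All 9 had enough counts to enter the fit of 11335 genes. They were chosen by name with their footprint counts in these same METTL18 knockout and wild-type libraries already known, so the difference between the groups in these 9 genes is a description and carries no test.

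Footprints were sequenced from HAP1, an established near-haploid human line derived from a chronic myeloid leukaemia line. The 3 METTL18 knockout libraries came from HAP1 cells whose genotype the labels give as METTL18 knockout, and the 2 wild-type libraries from HAP1 cells labelled as wild type. METTL18 adds a methyl group to a histidine of the ribosomal protein RPL3. The labels used here name neither the mutation nor the number of clones or separate cultures. The p-values therefore speak of the spread among these libraries alone, which could be technical.

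A ribosome shields a short stretch of mRNA from nuclease, and these protected fragments are the footprints. A footprint count follows both the amount of an mRNA and the number of ribosomes on it, and the libraries do not separate the 2 parts. Neither do they separate fewer cells that express a gene from less of its RNA in each cell. Levels are given as CPM, counts per 1000000 of the library total after TMM scaling, with mean ± SD over libraries. Fold changes are log2 values of METTL18 knockout over wild type with their SE. For genes outside the 9, a change was called at an adjusted p under 0.05 in edgeR's quasi-likelihood test, adjusted by Benjamini-Hochberg over all 11335 genes.

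p53 is made continuously and destroyed almost as quickly. MDM2, a ubiquitin ligase, marks it for destruction, and MDM4, which lacks strong ligase activity of its own, pairs with MDM2 and covers the transactivation domain of p53. When DNA damage or a fault in ribosome assembly frees p53, it binds promoters and introns as a tetramer and switches on genes for cell-cycle arrest, cell death, restrained growth and nucleotide supply, and also MDM2, which closes a feedback loop.

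Depth ran with the groups. The METTL18 knockout libraries held 16339574, 17629199 and 16921863 counts, against 5302160 and 4887380 counts in wild type, a 3.33-fold difference in mean depth, and any effect of depth cannot be told apart from the genotype. METTL18 itself had 2.10 ± 0.117 CPM in the knockout (SD, n = 3) and 5.70 ± 0.210 CPM in wild type (SD, n = 2), a log2 fold change of -1.44 (edgeR adjusted p = 2e-06). These levels rest on 33, 32 and 34 counts in the knockout libraries and 33 and 32 in wild type. Footprints of METTL18 thus remained in the knockout, and the lower CPM there comes with the greater depth. In all, 4143 genes (36.6%) were called lower and 4288 (37.8%) higher, 74.4% in either direction, so a call by itself is common here. HAP1 has no agreed positive marker. Of 7 blood cell markers 3 had a row in the table, summing to 0.127 to 0.246 CPM in the knockout and 0.337 to 0.366 CPM in wild type, with CD33 at 0. Of 5 fibroblast markers 3 had a row, nearly all of it COL1A1, summing to 21.8 to 24.5 CPM in the knockout and 16.0 to 17.7 CPM in wild type.

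The promoters of 7 of the 9 genes were searched for the letters that p53 recognises, the kind of site through which it acts on a gene directly. RefSeq promoter windows on GRCh38.p14, each 250 bases before to 50 after a transcript start, gave 13 windows for MDM2, MDM4, CDKN1A, SESN1, BAX, RPS27L and ZMAT3. The promoters of TNFRSF10B and RRM2B were not analysed here. A full p53 site, meaning a head-to-tail pair of the p53 half-site of 10 bases with no gap and at most 3 mismatches in 20 bases, on either strand, was found in 4 of the 13 windows (30.8%). The same search matched 1826 of 35116 promoters of all genes (5.2%). It matched 27 of 148 windows of other p53 targets (18.2%) and 3 of 34 of genes repressed through p21 and the DREAM complex (8.82%), 2 lists described below. Of the 4 windows of the 7 genes with a match, 2 belong to MDM2 and overlap, and the others belong to SESN1 and RPS27L. The windows of MDM4, CDKN1A, BAX and ZMAT3 held none, which says only that these letters are not in these windows.

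The 120 bases before the transcript start are shown for the 3 genes with a match, on the strand of the gene, with the matches in capitals. They lie at chr12:68808897-68809016 on the plus strand for MDM2, at chr6:109008989-109009108 on the minus strand for SESN1 and at chr15:63157478-63157597 on the minus strand for RPS27L, all from RefSeq on GRCh38.p14.
MDM2: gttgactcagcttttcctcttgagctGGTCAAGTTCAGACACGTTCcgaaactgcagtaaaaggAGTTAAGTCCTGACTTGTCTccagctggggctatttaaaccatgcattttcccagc
SESN1: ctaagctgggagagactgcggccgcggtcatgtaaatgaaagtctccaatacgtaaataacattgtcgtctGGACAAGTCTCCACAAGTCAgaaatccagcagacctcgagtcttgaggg
RPS27L: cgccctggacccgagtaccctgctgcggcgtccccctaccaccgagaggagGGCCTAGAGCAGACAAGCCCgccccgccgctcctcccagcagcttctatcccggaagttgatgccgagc
MDM2 holds 2 matches, which begin 94 and 56 bases before this start with 2 and 3 mismatches. This start is one of the more downstream starts of MDM2, within the gene, where its p53-responsive promoter is known to lie. SESN1 holds 1 match, 49 bases before the start of a shorter transcript that begins inside the gene, with 3 mismatches. RPS27L holds 1 match, 69 bases before its start, also with 3 mismatches.

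Other promoter letters were searched in the same windows on both strands. A perfect p53 half-site, which can lie within a full site, was in 2 of 13 windows (15.4%) against 6.63% of all promoters. Both lie within the full sites of SESN1 and RPS27L printed above, so they add no further site. The GC box GGGCGG was in 11 of 13 windows (84.6%) against 45% of all promoters, and the TATA box TATAAA was in 0 of 13 against 11.5%. Among windows of the other p53 targets, the half-site was in 10.1%, the GC box in 70.9% and the TATA box in 4.73%. For the genes repressed through p21 and DREAM these shares were 8.82%, 79.4% and 5.88%. Windows of the same gene can overlap, so the 13 are not independent. The element TTTGAA, known from promoters repressed through the DREAM complex, was in 15.4% of the windows against 15.2% of all promoters. These are descriptions of short windows and not evidence of binding in HAP1.

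The 9 genes were together a smaller part of the footprints in the knockout. They took 634, 642 and 650 CPM of the unscaled library totals in the 3 METTL18 knockout libraries, against 2789 and 2843 in wild type. MDM2 made up 35.7%, 36.8% and 35.8% of those counts in the knockout, against 53% and 52.7% in wild type. Of the 9 genes, 8 were lower and 1, BAX, was higher, with a median log2 fold change of -1.11, beside 0.02 over all genes tested. Since the contrast served to pick the genes, nothing is read from that count beside the 36.6% and 37.8% of all genes called lower and higher. No library of one group overlapped the other group for any of the 9. The share of all genes with such a separation was not determined, so nothing is read from it. The 8 lower and 1 higher held in all 14 other settings of scaling, filter, tool and left-out library.

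**Figure D1:**
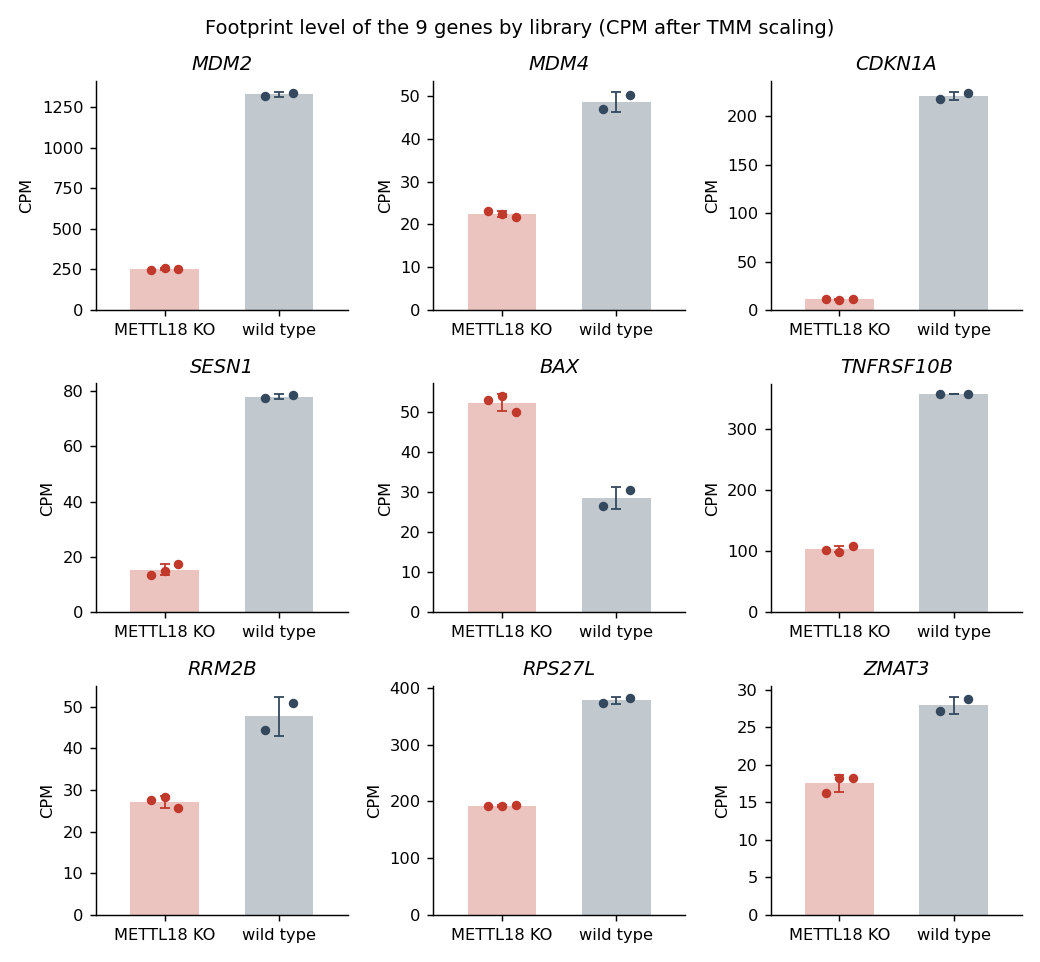
Footprint level of each gene in CPM after TMM scaling (vertical axes, from 0 and different for each gene), with 3 METTL18 knockout libraries in red and 2 wild-type libraries in grey. Points are libraries, bars are group means and whiskers are SD. The knockout libraries sit below the wild-type libraries for every gene except BAX.

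Among the regulators of p53, MDM2 had 244, 256 and 250 CPM in the METTL18 knockout libraries, against 1319 and 1339 CPM in the wild-type libraries. The 3 knockout libraries lie close together and far under both wild-type libraries. The mean of 250 ± 5.69 CPM in the knockout against 1329 ± 14.5 CPM in wild type is a log2 fold change of -2.41 (SE 0.0391), or 5.32-fold lower. The gene lies on hg38 chromosome 12, 68808176 to 68850686, plus strand, and its matched sites are those printed above. It rests on 3703 to 4165 counts in each knockout library and 7324 to 7836 in each wild-type library.

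MDM4 had 23.2, 22.4 and 21.8 CPM in the METTL18 knockout libraries, against 47.0 and 50.3 CPM in wild type. All knockout libraries were lower than both wild-type libraries, and the knockout libraries varied by 3.03% (coefficient of variation), less than the 5.32% that counting error alone gives. This is a log2 fold change of -1.11 (SE 0.0875), or 2.16-fold lower (chromosome 1, 204516383 to 204558120, plus strand). The difference was larger for MDM2 than for MDM4, since the ratio of MDM2 to MDM4 per coding kilobase was 10.4, 11.3 and 11.3 in the knockout libraries, against 27.7 and 26.3 in wild type. Such a ratio is taken within a library, so scaling between libraries does not change it.

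TP73, a relative of p53, fell, with 6.45 ± 0.485 CPM in the METTL18 knockout (SD, n = 3) and 13.7 ± 0.557 CPM in wild type (SD, n = 2). Its fold change was -1.09 on the log2 scale (SE 0.154, edgeR adjusted p = 4.03e-08). TP63, another relative, had 1 count in the knockout libraries and none in wild type.

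CDKN1A, whose product p21 blocks cyclin-dependent kinases and halts the cell cycle, had the lowest fold change of the 9. It had 11.6, 10.8 and 11.2 CPM in the METTL18 knockout libraries, against 218 and 224 CPM in wild type. The knockout libraries are close to a common low level, each resting on 176 counts, while the wild-type libraries rest on 1293 and 1223 counts in spite of their lower depth. The log2 fold change was -4.30 (SE 0.0684), or 19.7-fold lower (chromosome 6, 36676460 to 36687337, plus strand). Its relative CDKN1B, which encodes the inhibitor p27 and is controlled largely by protein turnover, went the other way, at 38.8 ± 3.21 CPM in the knockout and 23.2 ± 0.495 CPM in wild type (log2 fold change 0.74, edgeR adjusted p = 2.23e-08). Per coding kilobase, the ratio of CDKN1A to CDKN1B was 0.350 ± 0.0323 in the knockout and 11.5 ± 0.0228 in wild type, so p21 footprints were the rarer of the pair in the knockout and the more frequent in wild type. CDKN1C, the third of the family, had no count in any library.

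SESN1 encodes sestrin 1, a stress protein that restrains growth signalling through mTORC1. It had 13.6, 15.1 and 17.6 CPM in the METTL18 knockout libraries, against 77.3 and 78.5 CPM in wild type. The groups are far apart, but the knockout libraries differ among themselves by more than for any other of the 9: their coefficient of variation was 13.2%, where counting error alone gives 6.41%, with replicate 3 highest. The log2 fold change was -2.33 (SE 0.0884), or 5.03-fold lower, and -2.44 without METTL18 knockout replicate 3 (chromosome 6, 108986437 to 109094819, minus strand). A gene on the opposite strand overlaps 14.7% of its coding bases, and the labels do not say whether counting used the strand.

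The other sestrins split. SESN2, also a p53 target and a target of the integrated stress response, fell, with 18.4 ± 0.576 CPM in the knockout and 80.1 ± 3.83 CPM in wild type (log2 fold change -2.12, edgeR adjusted p = 1.32e-25). SESN3, known as a target of FOXO factors, rose, with 35.8 ± 0.869 CPM in the knockout and 17.6 ± 0.662 CPM in wild type (1.02, edgeR adjusted p = 1.47e-11). The ratio of SESN1 to SESN2 per coding kilobase was 0.729 ± 0.0790 in the knockout and 0.847 ± 0.0313 in wild type. The ratio of SESN1 to SESN3 was 0.385 ± 0.0445 in the knockout and 3.94 ± 0.105 in wild type, 10.2-fold apart.

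The cell-death genes differed in opposite directions. BAX, which forms pores in the outer mitochondrial membrane, had 53.1, 53.9 and 49.9 CPM in the METTL18 knockout libraries, against 26.6 and 30.5 CPM in wild type. It is the one gene of the 9 with every knockout library above both wild-type libraries. The log2 fold change was 0.88 (SE 0.0897), or 1.84-fold higher, and lay between 0.60 with total-count scaling and 0.97 without wild type replicate 2 (chromosome 19, 48954877 to 48961798, plus strand). Its wild-type level rests on 158 and 167 counts.

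BAK1 and BOK, the other pore-forming members of the BAX family, were also called higher. BAK1 had 15.7 ± 0.570 CPM in the knockout and 11.9 ± 0.819 CPM in wild type (log2 fold change 0.41, edgeR adjusted p = 0.00667), but did not pass with total-count scaling (0.14, edgeR adjusted p = 0.365) or without wild type replicate 1 (0.34, edgeR adjusted p = 0.105). BOK, at 2.68 ± 0.388 CPM in the knockout and 1.22 ± 0.176 CPM in wild type (1.13, edgeR adjusted p = 0.00706), did not pass without wild type replicate 2 (0.99, edgeR adjusted p = 0.0745). Only 36.1% of the 28-base stretches of the BAK1 coding sequence are in no other gene, the rest being shared with its pseudogenes, so its count is uncertain. All such stretches of BAX are in no other gene.

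TNFRSF10B encodes DR5, a death receptor for the ligand TRAIL. It had 102, 99.7 and 109 CPM in the METTL18 knockout libraries, against 357 and 357 CPM in wild type. Both wild-type libraries are above every knockout library by a wide margin, at a log2 fold change of -1.78 (SE 0.0491), or 3.44-fold lower. All of its 3 paralogues fell: TNFRSF10A, the other TRAIL death receptor (-1.28, edgeR adjusted p = 4.81e-22), and the decoy receptors TNFRSF10C (-2.87, edgeR adjusted p = 1.54e-14) and TNFRSF10D (-3.13, edgeR adjusted p = 1.97e-37).

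The decoy TNFRSF10D was lower by more than the death receptor. TNFRSF10D had 34.8 ± 0.711 CPM in the knockout and 305 ± 8.90 CPM in wild type. The ratio of TNFRSF10B to TNFRSF10D per coding kilobase was 2.51, 2.54 and 2.79 in the knockout libraries, against 1.01 and 1.05 in wild type, while that of TNFRSF10B to TNFRSF10A was 2.11 ± 0.163 in the knockout and 2.98 ± 0.0421 in wild type. TNFRSF10C is a scarce gene at 1.38 ± 0.334 CPM in the knockout and 10.2 ± 0.349 CPM in wild type, and 65.9% of its 28-base stretches are in no other gene.

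RRM2B encodes the p53-induced small subunit of ribonucleotide reductase, the enzyme that makes deoxynucleotides for DNA repair outside S phase. It had 27.5, 28.2 and 25.6 CPM in the METTL18 knockout libraries, against 44.4 and 51.0 CPM in wild type. The groups do not overlap, although the wild-type pair is spread more widely (coefficient of variation 9.76%). The difference was a log2 fold change of -0.81 (SE 0.0879), or 1.76-fold lower, and -0.72 to -0.91 with either wild-type library left out.

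The other subunits, RRM2 and RRM1, rose instead. RRM2, the small subunit used in replicating cells, had 488 ± 23.1 CPM in the knockout and 241 ± 3.07 CPM in wild type (log2 fold change 1.02, edgeR adjusted p = 2.59e-22). RRM1, the large subunit that both small subunits join, had 469 ± 3.26 CPM in the knockout and 345 ± 3.34 CPM in wild type (0.44, edgeR adjusted p = 3.43e-12). The ratio of RRM2B to RRM2 per coding kilobase was 0.0617 ± 0.00527 in the knockout and 0.22 ± 0.0187 in wild type, and that of RRM2B to RRM1 was 0.131 ± 0.00714 in the knockout and 0.313 ± 0.0335 in wild type. Only 12.5% of the 28-base stretches of RRM2 are in no other annotated gene, so the RRM2 count is uncertain, while all those of RRM1 and RRM2B are.

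RPS27L is a near copy of the small-subunit ribosomal protein RPS27, and its protein can take that place in the ribosome. Since reads of such a pair could be mixed up, their coding sequences are shown in full, from the start codon to the stop codon, with the bases that differ in capitals. They come from GENCODE 29 on hg38, RPS27L at chr15:63148250-63157802 on the minus strand and RPS27 at chr1:153990755-153992155 on the plus strand.
RPS27L: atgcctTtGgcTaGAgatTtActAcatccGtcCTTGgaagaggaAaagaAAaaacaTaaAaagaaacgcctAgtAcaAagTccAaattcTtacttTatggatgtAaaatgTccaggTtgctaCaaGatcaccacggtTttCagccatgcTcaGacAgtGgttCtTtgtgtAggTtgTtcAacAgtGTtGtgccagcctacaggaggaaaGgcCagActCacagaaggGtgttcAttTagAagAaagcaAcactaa
RPS27: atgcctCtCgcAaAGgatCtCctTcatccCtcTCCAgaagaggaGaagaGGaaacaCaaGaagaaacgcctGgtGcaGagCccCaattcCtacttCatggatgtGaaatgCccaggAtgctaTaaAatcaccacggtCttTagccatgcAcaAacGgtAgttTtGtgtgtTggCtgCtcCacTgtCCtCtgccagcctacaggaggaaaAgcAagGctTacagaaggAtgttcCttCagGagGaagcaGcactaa
Both run over 255 bases and differ at 56, an identity of 78.0%. Of the 56 differences, 48 are at the third base of a codon, and the longest identical run is 20 bases. No stretch of 28 bases, the shortest footprint selected, is common to both, so an exactly matched footprint can be told to either gene of the pair.

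RPS27L was lower in the knockout while RPS27 rose. RPS27L had 192, 191 and 194 CPM in the METTL18 knockout libraries, against 373 and 382 CPM in wild type. The knockout libraries varied by 0.866%, less than the 1.82% of counting error, and both wild-type libraries are higher. This gave a log2 fold change of -0.97 (SE 0.0448), or 1.96-fold lower. RPS27 rose, with 965 ± 57.9 CPM in the knockout and 542 ± 6.02 CPM in wild type (log2 fold change 0.83, edgeR adjusted p = 1.46e-20).

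The ratio of RPS27L to RPS27, 2 genes of equal length, was 0.204, 0.207 and 0.188 in the knockout libraries, against 0.682 and 0.711 in wild type, 3.49-fold apart. Pseudogenes limit these values: 85.1% of the 28-base stretches of RPS27L are in no other gene, but 0% of those of RPS27, whose count depends on how reads that match several places were treated, which no label states.

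ZMAT3 encodes a zinc-finger protein that binds RNA and regulates splicing. It had 16.2, 18.2 and 18.2 CPM in the METTL18 knockout libraries, against 27.1 and 28.7 CPM in wild type. The groups do not overlap, and the log2 fold change of -0.67 (SE 0.107), or 1.59-fold lower, is the nearest to 0 of the 9. It lies on chromosome 3, 179017223 to 179072279, minus strand.

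**Figure D2:**
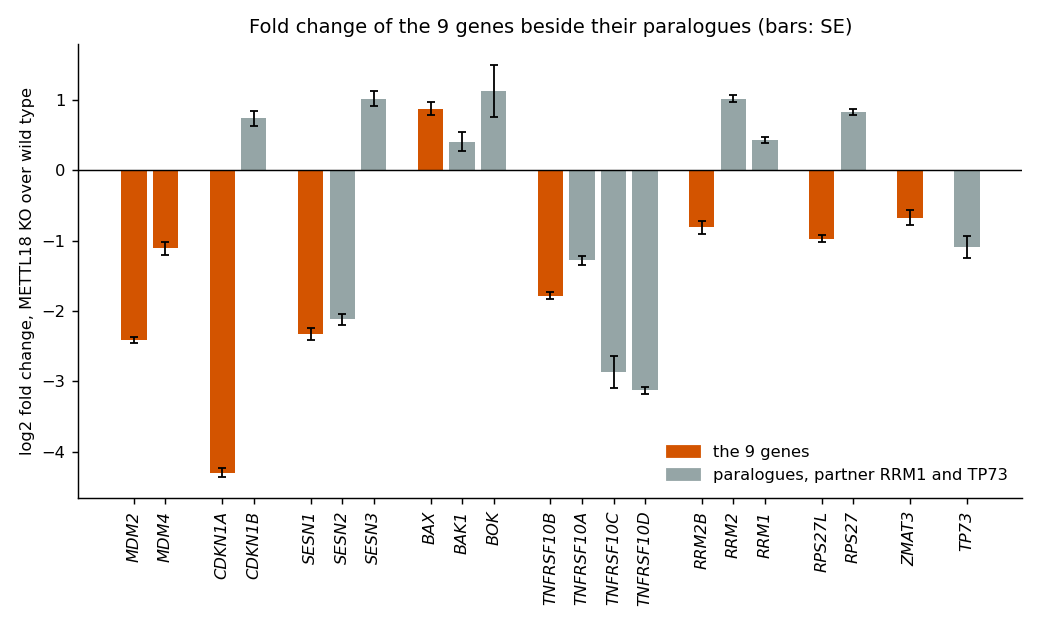
Log2 fold change of METTL18 knockout over wild type (vertical axis) for the 9 genes in orange and their paralogues, the partner subunit RRM1 and TP73 in grey, set side by side by family. Whiskers are SE. The TRAIL receptors and SESN1 with SESN2 lie below 0 together, while CDKN1A, RRM2B and RPS27L lie below 0 beside relatives above it.

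**Figure D3:**
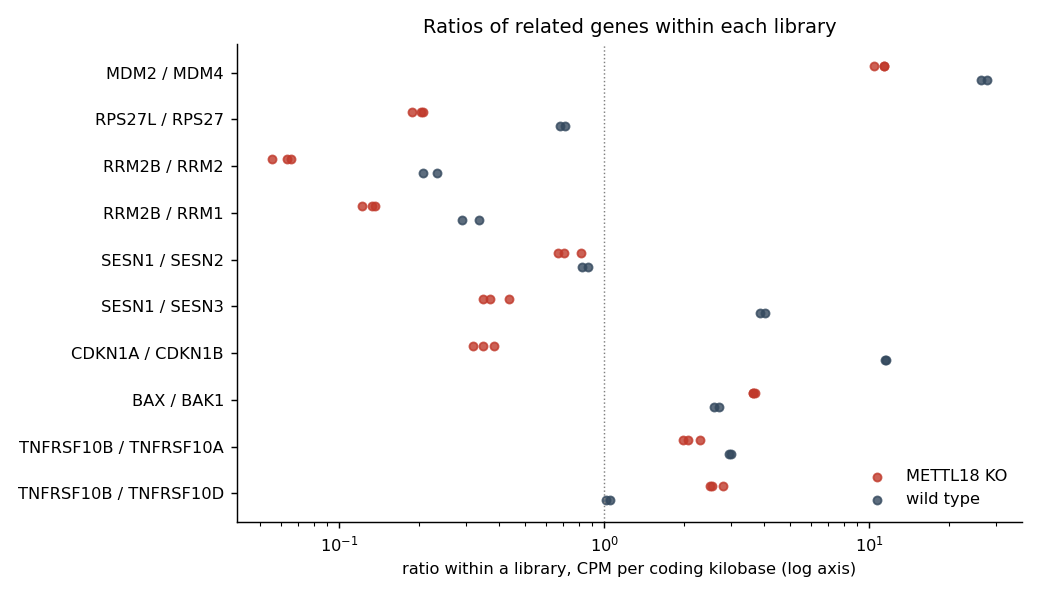
Ratio of each gene to a related gene within a library, from CPM per coding kilobase (horizontal log axis), with 3 METTL18 knockout libraries in red drawn above 2 wild-type libraries in dark grey. The ratios of RPS27L to RPS27, RRM2B to RRM2, SESN1 to SESN3 and CDKN1A to CDKN1B lie lower in the knockout libraries, and those of BAX to BAK1 and TNFRSF10B to TNFRSF10D lie higher.

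Levels per coding kilobase put the 9 genes in a different order in the groups. In the knockout the order of mean levels was RPS27L (763 CPM per kilobase), MDM2 (168), BAX (90.9), TNFRSF10B (78.6), RRM2B (25.8), CDKN1A (22.8), ZMAT3 (20.2), MDM4 (15.3) and SESN1 (9.35), and no neighbours in it overlapped. In wild type it was RPS27L (1498 CPM per kilobase), MDM2 (891), CDKN1A (448), TNFRSF10B (270), BAX (49.6), SESN1 (47.1), RRM2B (45.3), MDM4 (33.1) and ZMAT3 (32.2). There the libraries of BAX and SESN1, of SESN1 and RRM2B, and of MDM4 and ZMAT3 overlapped, so these neighbours do not differ beyond their spread.

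Set among 11284 genes with a coding length, CDKN1A stood at the 59.5th percentile of levels per kilobase in the knockout and the 96.8th in wild type. SESN1 stood at the 40.6th in the knockout and the 74.2nd in wild type. MDM2 stayed among the more heavily footprinted genes, at the 89.8th percentile in the knockout and the 98.5th in wild type, as did RPS27L, at the 97.5th in the knockout and the 99.2nd in wild type. BAX stood at the 83.3rd in the knockout and the 75.1st in wild type.

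Of 12 listed paralogues and partners of the 9 genes 11 were tested, and 7 rose and 4 fell. Their median log2 fold change was 0.44, beside 0.02 for all genes, of which 37.8% were called higher and 36.6% lower. The 9 genes themselves had a median of -1.11, but they were picked with this contrast known, so nothing is read from that gap. The 4 that fell are SESN2 and the 3 TRAIL receptors, which are themselves on the wider list of p53 targets. RPS27 is also on the list of MDM2-binding ribosomal proteins.

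A wider list of 115 other p53 targets put the 9 beside the rest of the pathway. Of these, 110 had a row and 99 were tested: 57 fell, 22 rose and 20 did not pass, with a median log2 fold change of -0.49, beside 0.02 over all genes. Among all genes 36.6% were called lower and 37.8% higher. The list was put together with earlier results of these libraries known. With total-count scaling, which moves the median of all genes to -0.26, the list had 68 lower and 16 higher and a median of -0.76.

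By role, the cell-cycle targets had 10 of 11 lower, with a median of -1.17, beside 36.6% of all genes called lower and a median of 0.02. Since the list was put together with earlier results of these libraries known, nothing particular to this or any other role is read from such counts. PLK2, a kinase induced by stress (-3.36, edgeR adjusted p = 7.15e-28), GADD45A, a damage-induced inhibitor of cell-cycle kinases (-2.47, edgeR adjusted p = 1.69e-20), and PHLDA3, an inhibitor of AKT (-2.23, edgeR adjusted p = 1.51e-23), fell. The exception was SFN, which encodes 14-3-3 sigma. SFN, named after its values were seen, had 103, 95 and 68 counts in the knockout libraries and none in wild type, at least 21.4-fold higher against a floor of 3 counts over the group.

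Of 17 tested apoptosis targets 10 fell, 3 rose (PERP, TNFAIP8 and TRAF4, named after their values were seen) and 4 did not pass. Shares over all genes were 36.6% called lower and 37.8% called higher. FAS, a death receptor like TNFRSF10B, had 4.14 ± 0.426 CPM in the knockout and 33.2 ± 5.79 CPM in wild type (-3.00, edgeR adjusted p = 1.53e-22). Of 10 tested targets that are secreted or sit at the cell surface 8 fell, among them GDF15, a stress cytokine (-3.61, edgeR adjusted p = 1.51e-30), and LRP1, an endocytic receptor (-1.77, edgeR adjusted p = 1.82e-29).

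Of the 6 targets that act back on p53, as MDM2 does, 3 fell, 1 rose and 2 did not pass. With 36.6% of all genes called lower and 37.8% higher, nothing is read from counts this small. RCHY1, a ubiquitin ligase of p53 also called PIRH2, rose, with 85.2 ± 4.90 CPM in the knockout and 26.5 ± 0.313 CPM in wild type (1.69, edgeR adjusted p = 3.6e-21). Among those that fell, named after their values were seen, were PPM1D (-1.17), the phosphatase that dampens the damage response, and TRIAP1 (-1.09). CCNG1 (-0.04) and FBXO22 (-0.09), named likewise, did not pass.

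In the remaining roles the picture was mixed, beside 36.6% of all genes called lower and 37.8% higher. Nothing particular to these roles is read from their counts. Repair and nucleotide supply had 4 lower (XPC, POLH, ASCC3 and DDB2, named after their values were seen) and 1 higher of 6, the last being the replication clamp PCNA (0.55, edgeR adjusted p = 5.62e-16). Metabolism and redox had 7 lower and 6 higher of 20, with a median of -0.08, close to that of all genes. Autophagy and membrane traffic had 4 lower and 2 higher of 6. Other functions had 11 lower and 7 higher of 23, among them CYFIP2, a subunit of the WAVE complex of actin assembly (-1.84, edgeR adjusted p = 5.64e-28), DDIT4, an inhibitor of mTORC1 (1.68, edgeR adjusted p = 6.93e-16), and PML, the organiser of nuclear bodies (1.00, edgeR adjusted p = 9.76e-13).

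**Figure D4:**
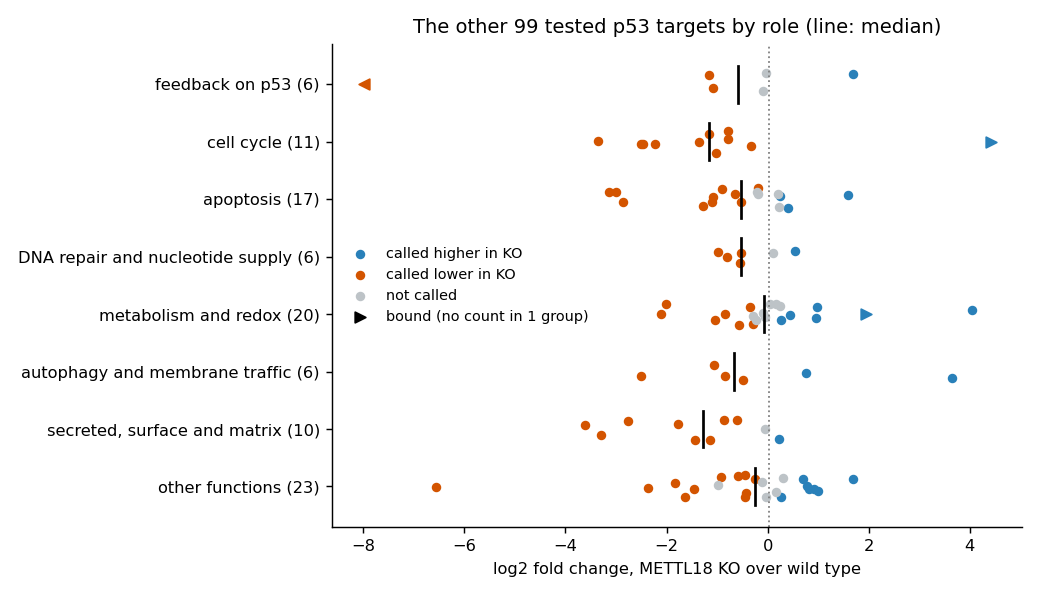
Log2 fold change of METTL18 knockout over wild type (horizontal axis) for the 99 tested p53 targets outside the 9, by role with the number of genes in brackets. Points are genes coloured by call, triangles are genes with no count in one group drawn at their bound, black lines are medians and the dotted line is the median of all genes. Most cell-cycle targets lie to the left, with a median of -1.17, and the metabolic targets lie around the dotted line. The list was put together with earlier results known, so nothing particular to a role is read from this.

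Genes of proteins that act on p53 or MDM2 were called in both directions. Of 33 listed regulators 31 were tested: 9 rose, 12 fell and 10 did not pass, with a median of 0.06, beside 37.8% of all genes called higher, 36.6% called lower and a median of 0.02. Nothing particular to the regulators is read from these counts. With total-count scaling 6 rose and 20 fell. The damage kinase PRKDC fell (-1.61, edgeR adjusted p = 2.27e-34), and the ubiquitin ligase TRIM24 (1.63, edgeR adjusted p = 1.81e-27), the MDM2 partner TRIM28 (0.98, edgeR adjusted p = 5.27e-24) and the p53 deubiquitinase USP10 (1.38, edgeR adjusted p = 7.61e-24) rose.

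Ribosomal proteins that bind MDM2 when they are not built into ribosomes, with the 5S particle and nucleolar proteins, are known as a route by which faulty ribosome assembly reaches MDM2. Of 24 listed 20 were tested, and 18 rose, with a median of 0.67, beside 37.8% of all genes called higher and a median of 0.02. Ribosomal proteins not known to bind MDM2 were not compared, so nothing particular to binding of MDM2 is read from this count. Of the others, GTF3A fell (-1.09) and RPF2 (-0.08) did not pass, both named after their values were seen. RPL23 (1.26, edgeR adjusted p = 2.97e-28), RPL37 (1.01), RPS25 (0.89) and the nucleolar protein NCL (0.95) rose. RPL5 (0.32) and RPL11 (0.68), the ribosomal proteins of the 5S particle, also named after their values were seen, rose as well. With total-count scaling 16 rose and 2 fell. Ribosomal protein genes have many pseudogenes, so these counts share the limit given for RPS27.

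Genes that p21 represses through the DREAM complex were set beside CDKN1A. Of 30 listed 29 were tested: 17 rose, 8 fell and 4 did not pass, with a median of 0.26, beside 37.8% of all genes called higher, 36.6% called lower and a median of 0.02. MCM5 (1.28, edgeR adjusted p = 2.39e-24) and CDC25A (1.00, edgeR adjusted p = 2.41e-19) rose, and TOP2A fell (-1.11, edgeR adjusted p = 4.11e-28). The direction of this list depends on the scaling, since with total-count scaling 11 rose and 11 fell, with a median of -0.01. TTTGAA was in 19 of 34 promoter windows of these genes (55.9%), against 15.4% of the windows of the 9 genes and 15.2% of all promoters.

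Outside all lists, the genes whose centred log2 CPM over the 5 libraries came closest to the median of the 9, by root mean square difference, were MED12 (0.0164), GNPAT (0.0165), TRRAP (0.0246), DENND5A (0.0257) and PLA2G4A (0.0278). Their log2 fold changes lay between -1.08 and -1.15. MED12, a subunit of the Mediator complex, had 97.6, 94.1 and 92.5 CPM in the METTL18 knockout libraries, against 194 and 206 CPM in wild type. This pattern is the split between the groups, which most genes share in one direction or the other.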

How the data were processed

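Ribosome footprints of 28 to 32 bases were sequenced from 5 HAP1 libraries, METTL18 knockout (n = 3) and wild type (n = 2), grouped by genotype in the labels. Per the labels' protocols, lysates made with cycloheximide were digested with RNase I, monosomes were taken, and adapters carried 4 randomized bases. The labels' molecule field says polyA RNA, unlike the protocol. Per the submitters' processing notes, Bowtie and hg38 were used. The sources used here do not give the counting tool, annotation, strand or duplicate handling.

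The authors deposited raw counts, whole numbers for 14084 transcript rows, of which 387 hold no count. Of 39 symbols with more than 1 row, the row of most counts stood for the gene wherever genes are named, listed or ranked. The fit took every row that passed the filter, so the 11335 genes tested are transcript rows. GENCODE 29 held 13968 of the transcripts (99.2%). Floors and the counting errors given beside coefficients of variation cover counting error only, and the lower depth of the wild-type libraries limits precision there.

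Counts were fitted with edgeR 4.0.16 in R 4.3.3 (TMM, filterByExpr with a minimum count of 10 and total of 15, robust quasi-likelihood, prior count 2 for log2 CPM), after tests on simulated data. A gene with no count in a group was compared with a floor of 3 counts over the group, 0.0636 CPM in the knockout and 0.263 CPM in wild type. List medians were unaltered with such genes at that bound. Motifs and sequences were read with Python 3.11.15.

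The 9 genes and all lists were chosen with earlier results of these data known. Named genes were the 9, TP63, TP73 and the paralogues, the 10 falls and 4 rises of smallest adjusted p among other targets whose mean log2 CPM reached 3, up to 4 genes of each other list, and the 5 nearest patterns; some genes that this rule names are not reported here, and genes outside it are marked as named after their values were seen. Alternatives were RLE, upper quartile or total-count scaling, DESeq2 1.42.0, limma-voom (limma 3.58.1), no low-count filter, a mean CPM of at least 10, a replicate block, knockout libraries thinned to wild-type depth, and each library left out.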

Additional observations from a re-analysis of the deposited data

How the results depend on the processing

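The 9 genes kept their direction, 8 lower and 1 higher, under all 14 alternatives, and the largest shift came with total-count scaling, where MDM2 was -2.68, CDKN1A -4.57, BAX 0.60 and ZMAT3 -0.94. There the median over all genes is -0.26, against 0.02 with TMM, and 2982 genes are higher and 5597 lower. With it 20 p53 regulators fell (12 otherwise) and 11 DREAM genes rose (17 otherwise). With a mean CPM of at least 10, 0 of the 2 relatives of p53 fell (1 otherwise), since TP73 was no longer tested, and 14 other p53 targets rose (22 otherwise), with fewer genes tested. Among the MDM2-binding proteins 2 fell, against 1 otherwise, with upper quartile scaling, total-count scaling and a mean CPM of at least 10, and leaving out a library gave 1 to 2, with 2 without wild type replicate 1. The cause was not tested. The other 202 of 210 counts stayed within 1.5 times. They include the counts of lower genes among the 9, which are directions and not calls. Of 683 values for named genes 3 lost their call and 0 reversed. A further 21 values, all for genes among the 9, moved by their SE or more.

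A fit with the replicate number as a replicate block called 4322 higher and 4154 lower genes. The correlations of deviations between same-numbered libraries were 0.00853 and 0.0231. They cannot decide whether libraries of the same number belong together, since the deviations of the 2 wild-type libraries from their mean mirror each other. Depth limits ZMAT3, BAX, RRM2B and MDM4, with 157 to 279 counts in each wild-type library.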
